A study of Mus musculus with 24 samples.

Results

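Translation factors and aminoacyl-tRNA synthetases are the proteins that start, extend and supply protein synthesis. The members were all measured genes whose symbol begins with Eif and a number or with Eef, together with the genes of the aminoacyl-tRNA synthetases, and 79 such genes had values in both comparisons of the study, among 8289 genes measured for the PPARδ agonist and 8297 for the PPARγ agonist. Each gene was represented by its brightest probe, and 42 of the 79 had several probes. The rule uses symbols alone, and within it measured levels served only to pick the probe. The family itself was chosen with earlier results of these data known.

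The study examined 3T3-L1 adipocytes, a mouse fibroblast line that turns into fat cells after hormonal induction, and asked how activation of PPARδ and PPARγ, nuclear receptors that switch on genes of lipid metabolism, changes their expression. Exposure began on day 11 of differentiation and lasted 2 days, in insulin-containing medium for all cells. The groups were DMSO alone as the vehicle, the PPARδ agonist GW610742 (1 µM in the labels) and the PPARγ agonist GW347845 (100 µM in the labels, whereas the methods of the study name nanomolar doses, so the dose of this agonist is not settled). RNA was hybridized to Illumina mouse WG-6 arrays, 6 per group. The authors normalized the DMSO arrays once with each agonist, so both comparisons rest on the same 6 control arrays in different scalings. Values had a variance-stabilizing transformation by the authors and were taken here as log2, on which a difference of 1 is a doubling. For weak signals this reading is approximate. A gene is said to have risen or fallen where limma gave a Benjamini-Hochberg adjusted p under 0.05 over all probes of the comparison.

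The PPARγ agonist arrays stood apart from each other. Replicates 1 to 3 correlated with each other, and replicates 4 to 6 likewise, at 0.9923 to 0.9972 over all probes, whereas arrays from different sides of this division correlated at 0.9837 to 0.9907. In the controls both kinds of pair lay between 0.9951 and 0.9981. PPARγ agonist replicate 6 was closer to the controls (median correlation 0.9903) than to its own group (0.987). The PPARγ changes of 9 members differed by over 0.3 between replicates 1 to 3 and 4 to 6, and those of them that are described further on are given with both values. Adipoq, the gene of the adipocyte hormone adiponectin, had 13.05 ± 0.45 (SD, n = 6) in the controls. Fibroblast genes were also measured, among them Col3a1, a fibrillar collagen gene, with 12.51 ± 0.13 (SD, n = 6). In the PPARδ scaling the control arrays had a median of 10.27 for the mean of 6 adipocyte markers. For the mean of 11 preadipocyte and fibroblast markers it was 11.49. In a whole culture, fewer cells of a type and less RNA per cell cannot be told apart.

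Translation begins when eIF2 carries the initiator tRNA to the small ribosomal subunit, which eIF3 holds ready, and when the cap-binding factor eIF4E and its partner helicase load the mRNA. Elongation factors then bring in charged tRNAs and move the ribosome, and each tRNA is charged by a synthetase for its amino acid, in cytosol and in mitochondria. Synthetase genes were grouped by the ending of the symbol alone, so a gene that serves both places was counted as cytosolic. Cells lower eIF2 activity under amino acid or folding stress, which raises the transcription factor ATF4, and they lower cap-dependent initiation through the eIF4E-binding proteins, which mTORC1 keeps inactive in fed, insulin-treated cells such as adipocytes.

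ATF4, paired with C/EBP proteins, is known to bind the composite letters TGATGNAA, and synthetase genes are among its known targets, so the promoter windows of the members were searched for these letters on both strands (TTNCATCA on the other strand) from 250 bases before to 50 bases after the RefSeq start. A window was at hand for 61 of the 79 members, and 6 of these held a match (9.84%), as did 1219 of 27025 genes in all (4.51%). All matches but those of Eef2k and Eif2s3x fell in the cytosolic synthetases, where 4 of 9 genes held at least 1. Those of Tars, Gars and Iars are shown here with 2 genes of the stress response itself, since the comparisons further on set these synthetases beside ATF4 and its targets. Each line gives the GRCm38.p6 position and strand and 30 bases read 5′ to 3′ along the gene, with the matching letters in capitals.
Tars, chr15:11399655-11399684, minus strand: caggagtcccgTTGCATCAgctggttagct
Gars, chr6:55037960-55037989, plus strand: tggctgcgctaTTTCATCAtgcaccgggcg
Iars, chr13:49682126-49682155, plus strand: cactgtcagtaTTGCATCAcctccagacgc
Asns, chr6:7693214-7693243, minus strand: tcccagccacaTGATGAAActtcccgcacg
Slc1a4, chr11:20332699-20332728, minus strand: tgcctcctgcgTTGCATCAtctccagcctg
Tars, Iars and Slc1a4 carry the same 8 letters. A match describes the letters only, and none of these data measured binding.

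With the PPARδ agonist 9 members rose and 6 fell. The share that rose was 11.4% against 8.26% of all genes, and the share that fell was 7.59% against 8.69%. With the PPARγ agonist 10 members rose and 8 fell, or 12.7% and 10.1%, against 10.2% and 12.8% of all genes. These shares lie near the background, so the counts are not a result about the family, and its interest lies in which members moved. The same shares of all genes are the background for the counts of subgroups and lists further on. The median change over the 79 was 0.00 with the PPARδ agonist (all genes -0.01) and 0.04 with the PPARγ agonist (all genes 0.03). In all, 54 members were called with neither agonist, and their changes ran from -0.14 to 0.14 with the PPARδ agonist and from -0.21 to 0.15 with the PPARγ agonist. At an unadjusted p under 0.05, 27 of the 79 members passed with the PPARδ agonist (34.2%, against 31.9% of all genes) and 31 with the PPARγ agonist (39.2%, against 35.4%).

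**Figure D1:**
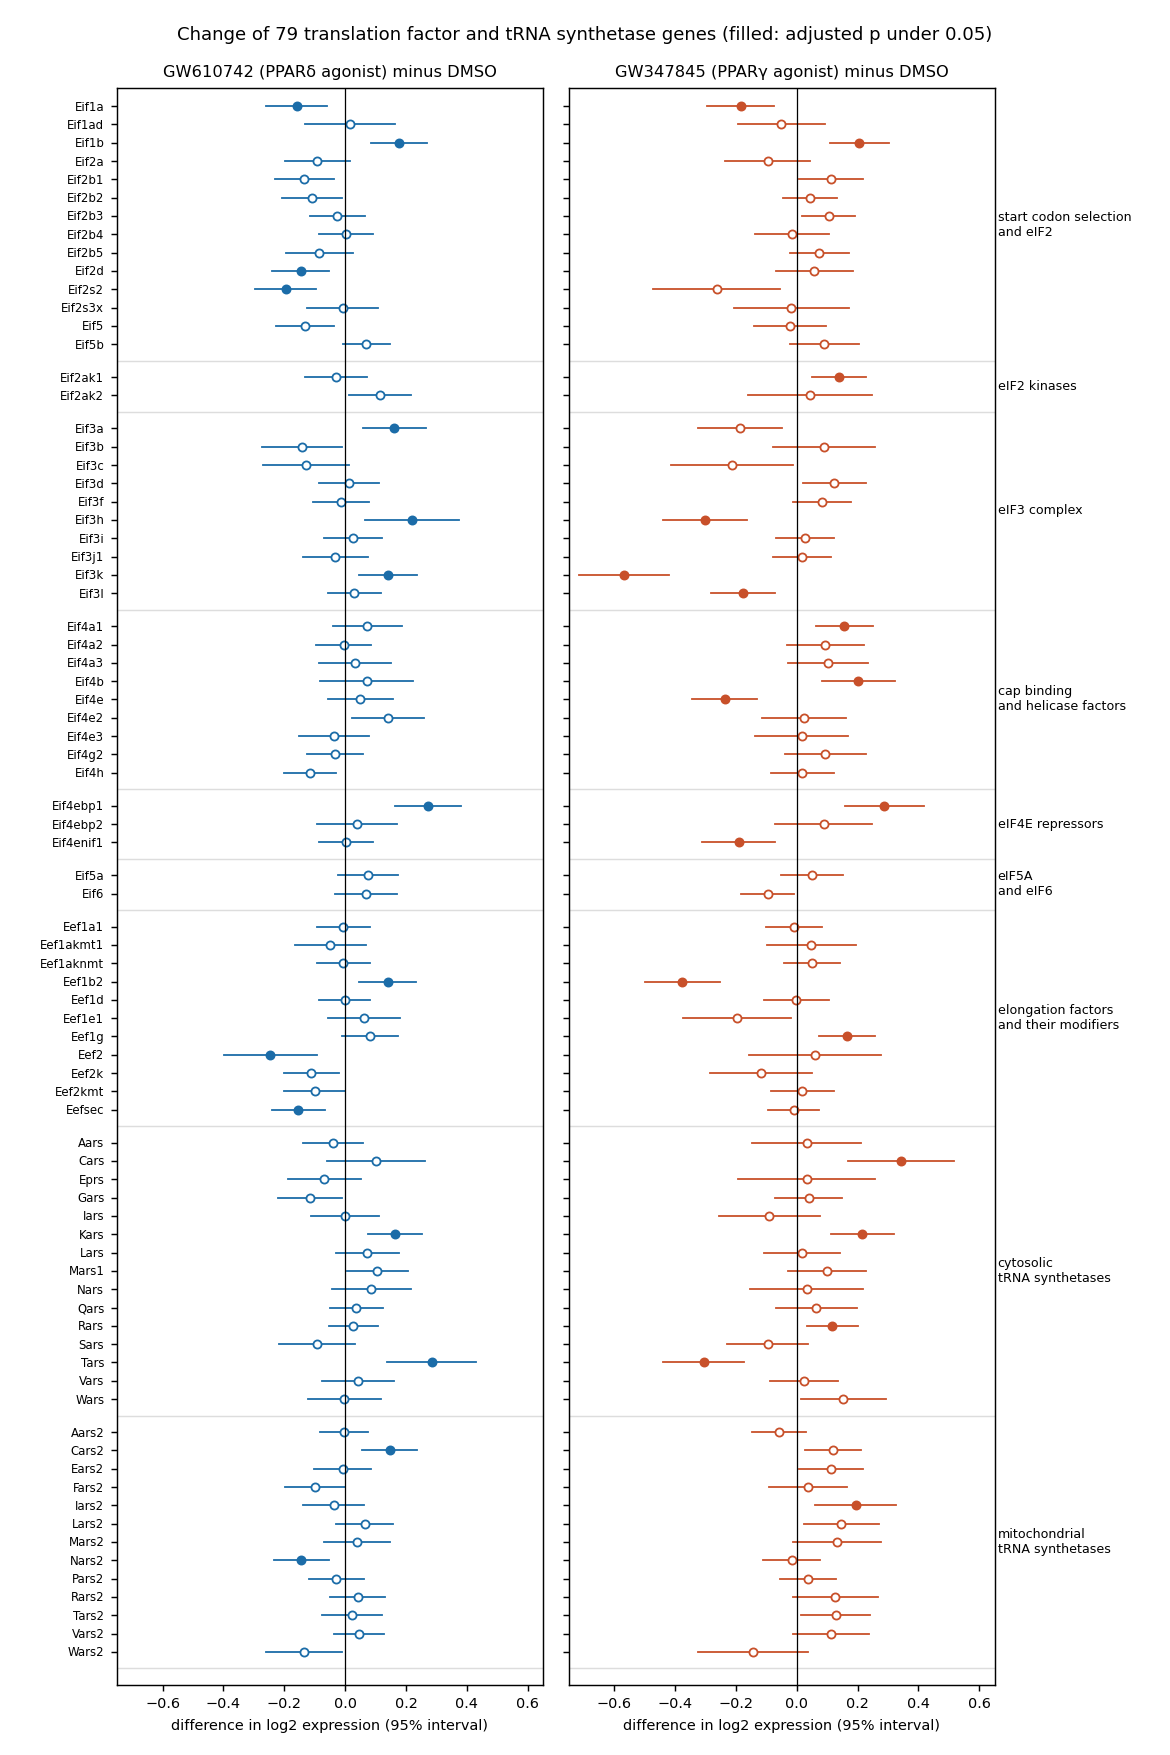
Difference in log2 expression between agonist and DMSO arrays (x axis, bars are 95% intervals) for all 79 members by function, with the PPARδ agonist on the left and the PPARγ agonist on the right, 6 arrays per group; filled points passed the test. Most intervals include 0, and Eif3k with the PPARγ agonist lies farthest out at -0.57.

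The PPARδ counts were sensitive to single arrays. The number that rose was 5 without DMSO replicate 4, 4 without DMSO replicate 5, 4 without PPARδ agonist replicate 1 and 5 without PPARδ agonist replicate 2. The number that fell was 3 without DMSO replicate 6, 3 without PPARδ agonist replicate 1 and 2 without PPARδ agonist replicate 2. Eif4ebp1, Kars, Eif1b and Tars were called higher, and Eif2s2 and Eefsec lower, with any 1 array left out, whereas the other 9 PPARδ calls were lost without at least 1 array. Of the 18 PPARγ calls, 14 held with any 1 array left out, and those of Eif2ak1, Iars2, Rars and Eif4enif1 did not. All 15 PPARδ calls and all 18 PPARγ calls had the same sign in replicates 1 to 3 as in replicates 4 to 6.

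Set against each other, at doses that the labels give as unequal, the agonists differed for 23 members. The change was higher with the PPARδ agonist for 10 (12.7%, against 13.8% of all genes) and lower for 13 (16.5%, against 14% of all genes), or for 7 after cyclic loess. The median difference was -0.05 over the members and -0.05 over all genes. With any 1 array left out, 8 of the 10 higher calls held, without those of Eef1e1 and Eif6. So did 8 of the 12 lower calls refitted, without those of Cars, Eif2ak1, Eif2b5 and Eif4h, and Eif2b3 was not refitted. Eif3k, Tars, Eif3h and Eef1b2 rose with the PPARδ agonist and fell with the PPARγ agonist, and no member did the reverse. Of these, only Tars kept its PPARδ call with any 1 array left out. Eif4ebp1, Kars and Eif1b rose with both, and Eif1a fell with both.

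The eIF3 complex, the large scaffold on which the initiation complex is built, held the widest single difference, that of Eif3k, with Tars next. Of its 10 measured subunits, Eif3a, Eif3h and Eif3k rose and none fell with the PPARδ agonist (30% rose, against 8.26% of all genes). Each of these rises was lost in most fits that left out 1 array. With the PPARγ agonist Eif3h, Eif3k and Eif3l fell and none rose (30% fell, against 12.8% of all genes). Eif3k had control values of 10.84 to 10.97 (median 10.91) and PPARδ agonist values of 10.91 to 11.17 (median 11.06). In the PPARγ scaling the controls ran from 10.66 to 10.79 (median 10.73) and the agonist arrays from 9.92 to 10.42 (median 10.14). The PPARγ arrays all lay below the controls, while the PPARδ arrays overlapped them through replicate 3 alone. The change was 0.14 (SE 0.05, adjusted p = 0.042) with the PPARδ and -0.57 (SE 0.07, adjusted p = 2.2e-05) with the PPARγ agonist, the latter a fold of 0.675, and they differed by 0.71 (SE 0.07, adjusted p = 2.9e-06). The PPARγ change was -0.46 over replicates 1 to 3 and -0.68 over replicates 4 to 6. The PPARδ rise was lost in 8 of 12 fits that left out 1 array, with an adjusted p of up to 0.085.

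Eif3h, another subunit, showed the same pattern at a lower signal. It had 7.02 to 7.44 (median 7.22) in the controls and 7.26 to 7.69 (median 7.38) with the PPARδ agonist. In the PPARγ scaling it had 6.94 to 7.32 (median 7.12) in the controls and 6.68 to 6.96 (median 6.81) with the agonist. Both agonist groups overlapped the controls. It changed by 0.22 (SE 0.07, adjusted p = 0.047) and -0.30 (SE 0.06, adjusted p = 0.0033), with a difference of 0.52 (SE 0.07, adjusted p = 2.8e-05). The PPARδ call was lost in 9 of 12 fits that left out 1 array, at an adjusted p of up to 0.11.

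Eif3a, the core subunit around which the complex is arranged, rose by 0.16 with the PPARδ agonist (SE 0.05, adjusted p = 0.033) from control values of 9.70 to 9.97 to 9.87 to 10.05. This gene lost the call in 8 of 12 fits that left out 1 array, with an adjusted p of up to 0.077. Under the PPARγ agonist it had -0.19 (SE 0.07, adjusted p = 0.051), and 5 of the 6 agonist arrays lay between 9.34 and 9.44 and below all controls, while replicate 6, at 9.70, lay among them. The agonists differed by 0.35 (SE 0.06, adjusted p = 5e-04). Eif3l, which pairs with eIF3k in the complex, had 0.03 with the PPARδ agonist and fell by 0.18 with the PPARγ agonist (SE 0.05, adjusted p = 0.017), a difference of 0.21 (adjusted p = 0.0042). Eif3b, an RNA-binding subunit, went the other way in this difference at -0.23 (adjusted p = 0.0095), with -0.14 (adjusted p = 0.13) and 0.09 (adjusted p = 0.44) for the separate agonists. The brightest probes of Eif3d, Eif3f, Eif3i and Eif3j1 had changes of -0.03 to 0.12 that did not pass, and Eif3c, with the other probes of Eif3f and Eif3i that were called, is described with the probes of 1 gene.

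**Figure D2:**
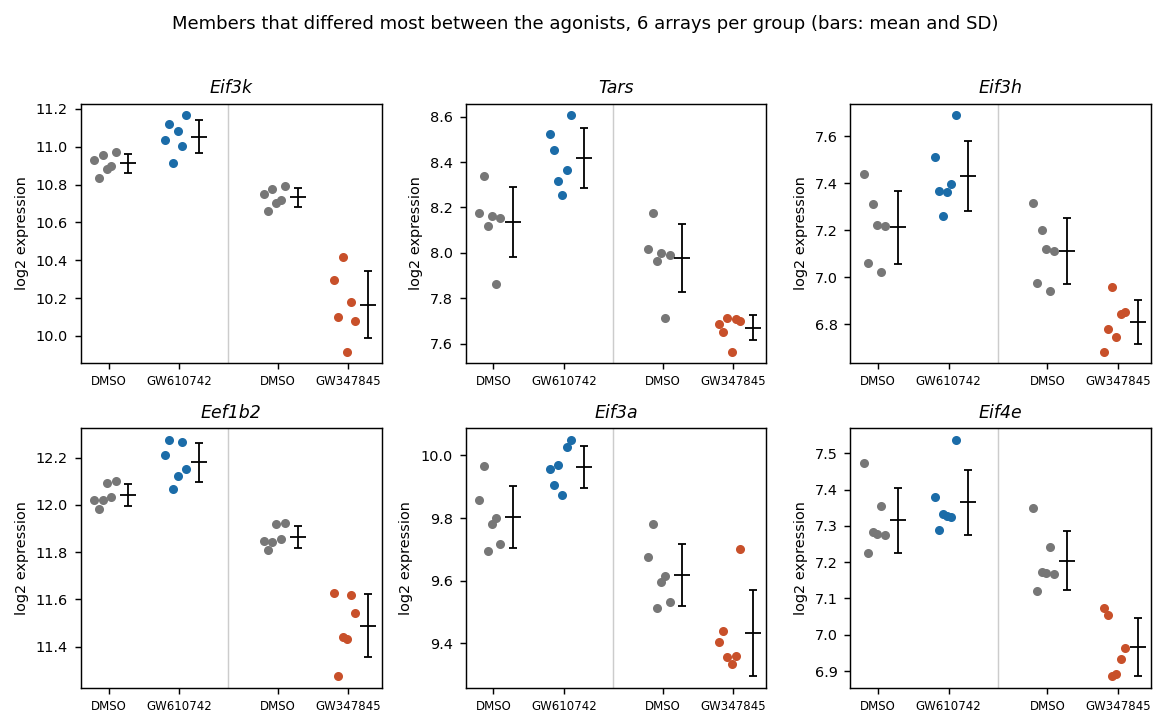
Log2 expression of Eif3k, Tars, Eif3h, Eef1b2, Eif3a and Eif4e on every array, with the DMSO and GW610742 arrays in the scaling of the PPARδ set on the left of each panel and the DMSO and GW347845 arrays in the scaling of the PPARγ set on the right; bars are mean and SD of 6 arrays. The GW347845 arrays of Eif3k, Tars, Eef1b2 and Eif4e all lie below their controls.

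Tars, which charges threonine tRNA and carries the match shown above, was the synthetase with the widest difference. Control values were 7.86 to 8.34 (median 8.16) and PPARδ agonist values 8.25 to 8.60 (median 8.41). In the PPARγ scaling controls had 7.72 to 8.18 (median 7.997) and agonist arrays 7.57 to 7.71 (median 7.69). All PPARγ agonist arrays were below the controls, by a narrow margin from DMSO replicate 5, which was the lowest control. Tars rose by 0.28 with the PPARδ agonist (SE 0.07, adjusted p = 0.011, fold 1.22) and fell by 0.31 with the PPARγ agonist (SE 0.06, adjusted p = 0.0021, fold 0.809). The difference was 0.59 (SE 0.06, adjusted p = 1.7e-06). A dimmer second probe of the gene had 0.02 (adjusted p = 0.87) and -0.11 (adjusted p = 0.16), so the change was seen on 1 of its 2 probes.

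Among elongation factors, Eef1b2, which recharges eEF1A with GTP, was called in opposite directions. It had 11.98 to 12.10 (median 12.03) in the controls and 12.06 to 12.27 (median 12.18) with the PPARδ agonist. On the PPARγ agonist arrays it had 11.27 to 11.63 (median 11.49) against 11.81 to 11.92 (median 11.85). The PPARγ arrays did not overlap the controls, and the PPARδ arrays overlapped them slightly. The changes were 0.14 (SE 0.04, adjusted p = 0.038, up to 0.085 with 1 array left out) and -0.38 (SE 0.06, adjusted p = 0.00019), and their difference 0.52 (SE 0.06, adjusted p = 1.3e-05). The PPARδ call was lost in 7 of 12 fits that left out 1 array. The PPARγ change was alike in replicates 1 to 3 (-0.38) and 4 to 6 (-0.37). Its other probes did not tell 1 story: a second had 0.23 (adjusted p = 0.005) and -0.87 (adjusted p = 2.6e-07), and another -0.16 (adjusted p = 0.033) and 0.01 (adjusted p = 0.95).

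Eef2, the factor that moves the ribosome along the mRNA, fell with the PPARδ agonist. Its controls had 9.16 to 9.68 (median 9.28) and the agonist arrays 8.95 to 9.21 (median 9.05), with a change of -0.25 (SE 0.07, adjusted p = 0.028, up to 0.053 with 1 array left out). DMSO replicate 2 was far above the other controls, and without it the fall was 0.17. A second probe also fell (-0.19, adjusted p = 0.044) and the dimmest of the 3 had -0.14 (adjusted p = 0.19). For the PPARγ agonist, Eef2 had 0.06 (adjusted p = 0.70), which joined -0.19 in replicates 1 to 3 and 0.31 in replicates 4 to 6. Eefsec, the factor that inserts selenocysteine, fell by 0.15 with the PPARδ agonist (SE 0.04, adjusted p = 0.016) from 6.91 to 7.03 in the controls to 6.77 to 6.92, and the groups met only through agonist replicate 6.

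Eef1g, which anchors the same exchange complex as Eef1b2, rose by 0.17 with the PPARγ agonist (SE 0.04, adjusted p = 0.012) with no overlap between the groups, in the opposite direction to its partner, and had 0.08 (adjusted p = 0.21) with the PPARδ agonist. Eef1a1, which delivers charged tRNAs, had -0.01 with each agonist, with 95% intervals of -0.09 to 0.08 and -0.10 to 0.08. Eef1e1, which encodes an accessory protein of the multisynthetase complex, had -0.20 with the PPARγ agonist (adjusted p = 0.099), which joined -0.02 in replicates 1 to 3 and -0.37 in replicates 4 to 6. It was higher with the PPARδ agonist in the direct comparison by 0.26 (adjusted p = 0.049), and this call was lost in 7 of 18 fits that left out 1 array, with an adjusted p of up to 0.108. Eef2k, the kinase that inhibits eEF2, had -0.11 and -0.12 and did not pass, and its PPARγ value joined -0.27 over replicates 1 to 3 with 0.04 over replicates 4 to 6.

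Kars, which charges lysine tRNA, rose with both agonists on its brightest probe. The controls had 9.26 to 9.36 (median 9.33) and the PPARδ agonist arrays 9.37 to 9.59 (median 9.50). In the PPARγ scaling the values were 9.08 to 9.18 (median 9.15) and 9.21 to 9.49 (median 9.39). Neither agonist group overlapped its controls. With the PPARδ agonist this held for 2 of 79 members, Kars and Eif4ebp1, and for 6.47% of all genes. With the PPARγ agonist it held for 9 of 79 members and for 11.2% of all genes. Lack of overlap was thus not particular to the members. The rises of Kars were 0.16 (SE 0.04, adjusted p = 0.015) and 0.22 (SE 0.05, adjusted p = 0.0045), with a difference of -0.05 (95% interval -0.17 to 0.06). A second, much dimmer probe fell with the PPARδ agonist (-0.19, adjusted p = 0.0097) and had -0.08 with the PPARγ agonist, and the mean of both probes had -0.01 with the PPARδ agonist (adjusted p = 0.78), so the direction for Kars rests on the choice of probe.

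The other cytosolic synthetases rarely passed. Of 15 measured, Kars and Tars rose with the PPARδ agonist, while Cars, Kars and Rars rose and Tars fell with the PPARγ agonist. Cars, for cysteine, had 6.45 to 6.91 in the controls and 6.77 to 7.22 with the PPARγ agonist, a rise of 0.34 (SE 0.08, adjusted p = 0.0067), and 0.10 with the PPARδ agonist (adjusted p = 0.38), and the agonists differed by -0.24 (adjusted p = 0.041, lost in 7 of 18 fits that left out 1 array, with up to 0.089). Rars, for arginine, rose by 0.12 with the PPARγ agonist (adjusted p = 0.039) with no overlap. Of the other synthetases whose match is shown, neither passed: Gars, for glycine, had -0.12 and 0.04, and Iars, for isoleucine, 0.00 and -0.09 with the PPARδ and PPARγ agonist. All 13 and 11 of them that were not called had changes within -0.12 to 0.11 with the PPARδ and -0.10 to 0.15 with the PPARγ agonist. As a group the cytosolic synthetases had a median of -0.06 in PPARγ replicates 1 to 3 and 0.12 in replicates 4 to 6, where all genes had 0.00 and 0.04.

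Mitochondrial synthetases serve the translation of the respiratory chain subunits encoded in the mitochondrial genome. Those assigned by symbol were measured for 13 genes, of which 1 was called with the PPARγ agonist. A positive change was seen for 10 of them (76.9%, against 58.8% of all genes), and the median was 0.11 (all genes 0.03). Iars2, for isoleucine, was the only one called, with a rise of 0.19 (SE 0.06, adjusted p = 0.034) that came to 0.32 for replicates 1 to 3 and 0.07 for replicates 4 to 6. The group's median was 0.16 in the former and 0.03 in the latter, against 0.00 and 0.04 for all genes. Lars2, for leucine, had 0.15 (adjusted p = 0.081). With the PPARδ agonist the median was 0.00, Cars2 (cysteine) rose by 0.15 (SE 0.04, adjusted p = 0.029) and Nars2 (asparagine) fell by 0.14 (SE 0.04, adjusted p = 0.03), and both calls were lost without at least 1 array.

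The cap-binding side of initiation moved in single genes. Eif4e, the cap-binding protein itself, had 7.12 to 7.35 (median 7.17) in the controls and 6.89 to 7.07 (median 6.95) with the PPARγ agonist, with no overlap, a fall of 0.24 (SE 0.05, adjusted p = 0.0029). The only probe of Eif4e was among the dimmest of the members, with a mean of 7.09 in the PPARγ set. With the PPARδ agonist Eif4e had 0.05 (adjusted p = 0.53), and the agonists differed by 0.29 (SE 0.05, adjusted p = 0.00067). Eif4a1, the helicase, rose by 0.16 with the PPARγ agonist (SE 0.04, adjusted p = 0.019) and had 0.07 with the PPARδ agonist. None of the 9 genes of this group was called with the PPARδ agonist, where Eif4e2, a cap-binding relative, and Eif4h, a helicase cofactor, had 0.14 and -0.12 (adjusted p = 0.096 and 0.058).

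Eif4ebp1, the mTORC1-controlled repressor that sequesters eIF4E, rose with both agonists and was the member with the smallest adjusted p with the PPARδ agonist. Controls had 12.62 to 12.84 (median 12.73) and PPARδ agonist arrays 12.88 to 13.16 (median 12.97). In the PPARγ scaling controls had 12.46 to 12.68 (median 12.57) and agonist arrays 12.70 to 13.03 (median 12.83). All agonist arrays lay above all controls. The rises were 0.27 (SE 0.05, adjusted p = 0.0023, fold 1.21) and 0.29 (SE 0.06, adjusted p = 0.0028, fold 1.22), and the interval of their difference was -0.15 to 0.12. Within the PPARγ arrays the rise was 0.47 for replicates 1 to 3 and 0.11 for replicates 4 to 6. Its paralog Eif4ebp2 had 0.04 and 0.09, neither called, and Eif4enif1, an eIF4E-binding protein of mRNA silencing, fell by 0.19 with the PPARγ agonist (adjusted p = 0.022, up to 0.054 with 1 array left out).

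In the start codon and eIF2 group of 14, Eif1b rose and Eif1a, Eif2d and Eif2s2 fell with the PPARδ agonist, and Eif1b rose and Eif1a fell with the PPARγ agonist. Eif1b, a close relative of the scanning factor eIF1, rose from 10.79 to 11.01 (median 10.86) to 10.96 to 11.13 (median 11.05) with the PPARδ agonist, by 0.18 (SE 0.04, adjusted p = 0.012), and by 0.21 with the PPARγ agonist (SE 0.05, adjusted p = 0.0042). In both comparisons the highest control, DMSO replicate 6, reached the lowest agonist array, and the other controls lay below all agonist arrays. Eif1a, which works with eIF1 in scanning, fell by 0.16 (SE 0.05, adjusted p = 0.03, up to 0.074 with 1 array left out) and 0.18 (SE 0.05, adjusted p = 0.018). The intervals of the differences between agonists were -0.12 to 0.06 for Eif1b and -0.08 to 0.13 for Eif1a.

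Eif2s2, the beta subunit of eIF2, fell with the PPARδ agonist from 11.24 to 11.43 (median 11.40) to 11.03 to 11.27 (median 11.17). The fall was 0.20 (SE 0.05, adjusted p = 0.011), and a second probe gave -0.21 (adjusted p = 0.0096). For the PPARγ agonist the brightest probe had -0.26 (adjusted p = 0.064), made up of -0.46 in replicates 1 to 3 and -0.07 in replicates 4 to 6, while the second probe fell by 0.22 (adjusted p = 0.027). Eif2d, which can deliver initiator tRNA without eIF2, fell by 0.15 with the PPARδ agonist (adjusted p = 0.033), a call that was lost in 7 of 12 fits that left out 1 array.

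Of the 5 subunits of eIF2B, the exchange factor that recycles eIF2 and is the point at which stress signalling acts, none was called with either agonist, and 4 were lower with the PPARδ agonist in the direct comparison. Their changes ran from -0.13 to 0.00 with the PPARδ agonist and from -0.02 to 0.11 with the PPARγ agonist. The 4 lower subunits were Eif2b1 (-0.25, adjusted p = 0.00023), Eif2b2 (-0.15, adjusted p = 0.012), Eif2b3 (-0.13, adjusted p = 0.025) and Eif2b5 (-0.16, adjusted p = 0.037), while Eif2b4 had 0.02 (adjusted p = 0.84). Of all genes 14% were lower in this comparison, and the median difference over all genes was -0.05. The call of Eif2b5 was lost in 6 of 18 fits that left out 1 array, with an adjusted p of up to 0.084. A second probe of Eif2b1 had -0.09 (adjusted p = 0.12), and of the other probes of Eif2b5 1 passed (-0.18, adjusted p = 0.013) and 1 did not (-0.09, adjusted p = 0.21). For Eif2b1 the controls had 9.35 to 9.61 (median 9.49) and the PPARδ agonist arrays 9.27 to 9.37 (median 9.35), a change of -0.13 (adjusted p = 0.053). The PPARγ agonist arrays had 9.33 to 9.50 against 9.18 to 9.43, a change of 0.11 (adjusted p = 0.11). Both agonist groups overlapped their controls. Of the eIF2 kinases, the heme-regulated Eif2ak1 rose by 0.14 with the PPARγ agonist (adjusted p = 0.026, up to 0.064 with 1 array left out), and Eif2ak2, the kinase that senses double-stranded RNA, was called with neither and had -0.17 in PPARγ replicates 1 to 3 and 0.26 in replicates 4 to 6.

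**Figure D3:**
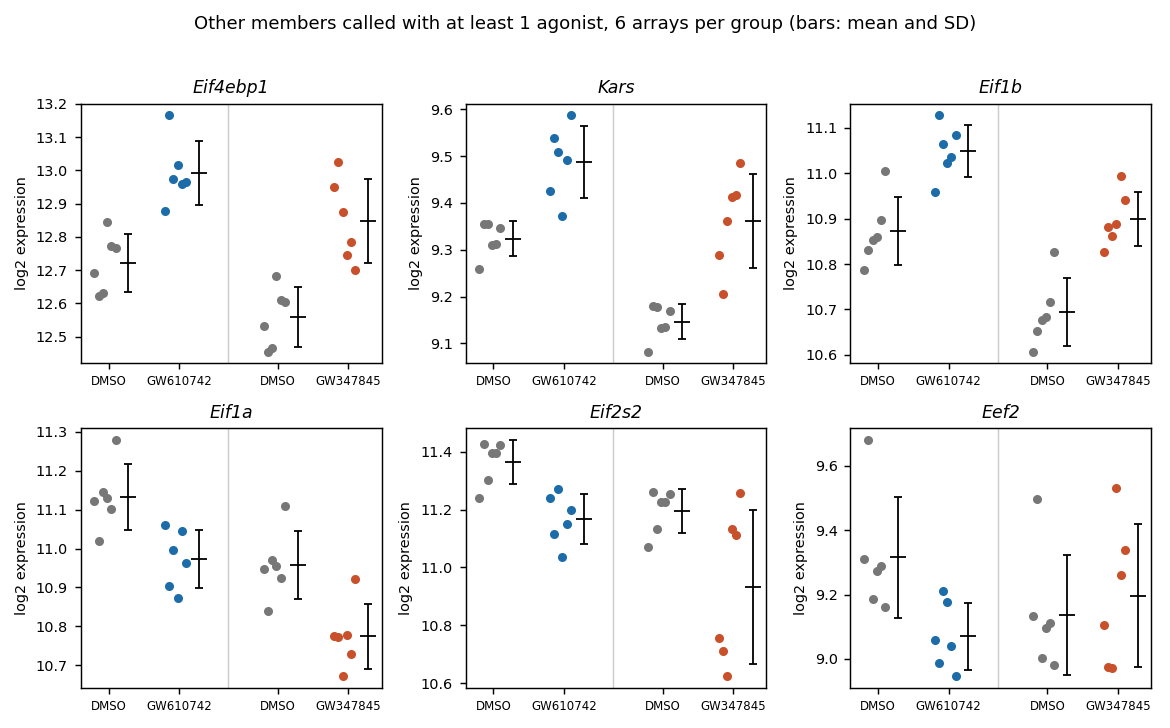
Log2 expression of Eif4ebp1, Kars, Eif1b, Eif1a, Eif2s2 and Eef2 on every array, laid out as DMSO and GW610742 in the PPARδ scaling and DMSO and GW347845 in the PPARγ scaling; bars are mean and SD of 6 arrays. All agonist arrays of Eif4ebp1 and Kars lie above their controls, and 1 control of Eef2, at 9.68 in the PPARδ scaling, lies far above the rest.

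Probes of the same gene often gave different answers, which limits what a single probe says about a gene. Among the 42 members with several probes, calls in opposite directions occurred for Eef1b2 and Kars with the PPARδ agonist and for Eif4b with the PPARγ agonist. A probe other than the brightest was the only one called for 4 members with the PPARδ and for 10 with the PPARγ agonist. The brightest was called but not every probe for 5 and 8, and only Eif2s2 with the PPARδ agonist was called on all. Apart from cases given above, second probes of Cars2 (PPARδ, -0.08, adjusted p = 0.22) and Eif4enif1 (PPARγ, 0.10, adjusted p = 0.14) had the opposite sign. Those of Eif2d and Eif3a (PPARδ) and Eif3l, Eif4a1, Iars2 and Rars (PPARγ) kept the sign without a call. The widest case was Eif3c, a core subunit of eIF3, whose brightest probe had -0.13 and -0.21 and was not called, while the other rose by 0.18 with the PPARδ agonist (adjusted p = 0.038) and fell by 0.98 with the PPARγ agonist (adjusted p = 5.1e-08). Eif4b, a cofactor of the helicase, rose by 0.20 with the PPARγ agonist on its brightest probe (adjusted p = 0.016) and fell by 0.26 on the other (adjusted p = 0.00068), where the PPARδ agonist gave 0.24 (adjusted p = 0.0026). Of the 10, 5 had a probe that fell with the PPARγ agonist, Eif3c and Eif2s2 and also Iars (-0.45, adjusted p = 0.00074), Eif3i (-0.25, adjusted p = 5e-04) and Eif2d (-0.28, adjusted p = 0.00052). The other 5 had a probe that rose, namely Eif2b5 (0.19, adjusted p = 0.02), Eif3f (0.15, adjusted p = 0.017), Mars1, for methionine (0.17, adjusted p = 0.02), Rars2, for mitochondrial arginine (0.16, adjusted p = 0.026), and Eif5. Eif5, the GTPase activator of eIF2, fell on its second probe with the PPARδ agonist (-0.19, adjusted p = 0.02) and rose on its dimmest with the PPARγ agonist (0.19, adjusted p = 0.0073).

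**Figure D4:**
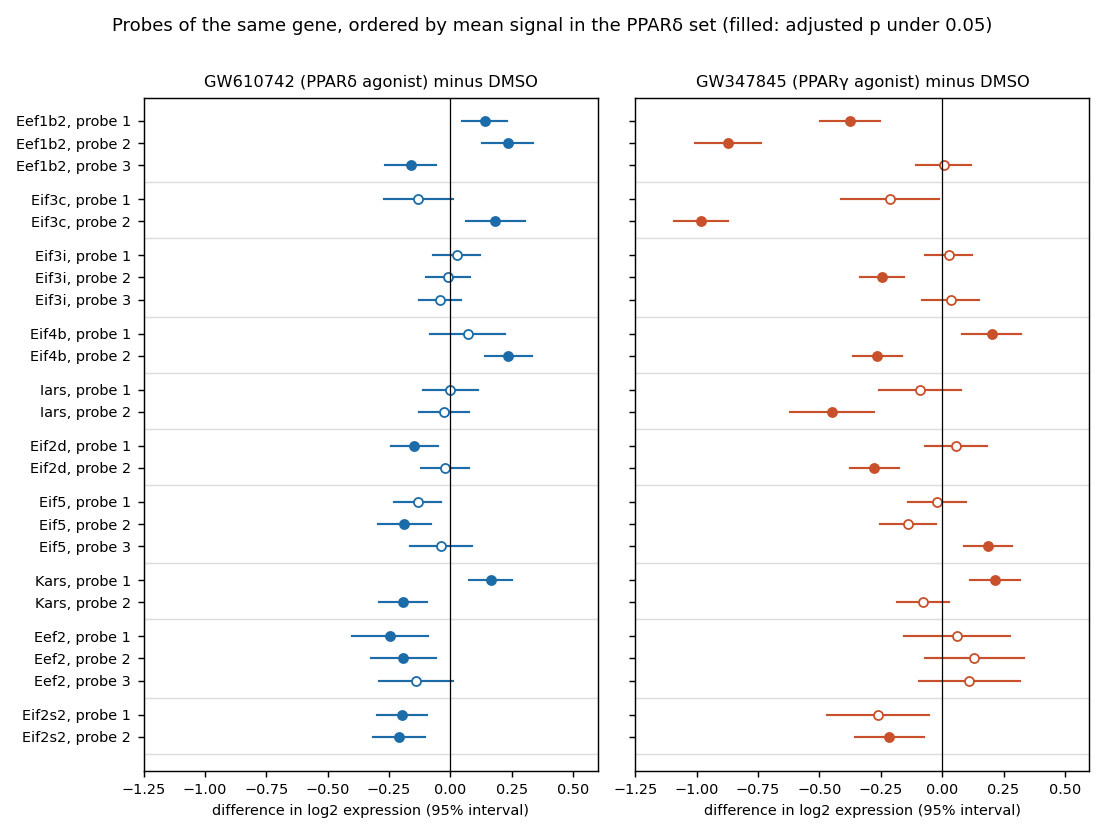
Difference in log2 expression between agonist and DMSO arrays (x axis, bars are 95% intervals) for each probe of 10 members, probes of a gene ordered by mean signal in the PPARδ set, with the PPARδ agonist on the left and the PPARγ agonist on the right; filled points passed the test. Probes of Eef1b2, Eif3c and Eif4b lie on both sides of 0, whereas the probes of Eif2s2 all lie below 0.

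The genes of the integrated stress response, which acts through eIF2 and eIF2B, were measured for 23 of 32 listed genes. With the PPARδ agonist 3 rose and 7 fell (13% and 30.4%, against 8.26% and 8.69% of all genes), with a median of -0.10. With the PPARγ agonist 1 rose and 3 fell (4.35% and 13%, against 10.2% and 12.8% of all genes), with a median of -0.11. Atf4, the central transcription factor of this response, rose by 0.24 with the PPARδ agonist (SE 0.05, adjusted p = 0.0051), as did its relative Atf5 (0.19, adjusted p = 0.027). These are mRNA values, and ATF4 protein was not measured. The genes that fell with the PPARδ agonist included known ATF4 targets: Slc1a4, a neutral amino acid transporter (-0.35, adjusted p = 0.0057), Ddit3, a transcription factor of the stress response (-0.34, adjusted p = 0.0073), Trib3, a pseudokinase (-0.41, adjusted p = 0.014), Chac1, a glutathione-degrading enzyme (-0.44, adjusted p = 0.03), and Mthfd2, a mitochondrial folate enzyme (-0.25, adjusted p = 0.014). These falls were larger in replicates 4 to 6 than in replicates 1 to 3, where the controls were lower. For Chac1 they were -0.08 in replicates 1 to 3, with controls of 11.30 to 11.49, and -0.79 in replicates 4 to 6, with controls of 11.94 to 12.21. In the same order Mthfd2 had -0.07 and -0.42, Trib3 -0.23 and -0.59, Ddit3 -0.19 and -0.49, and Slc1a4 -0.22 and -0.47, and for each of these the controls 4 to 6 all lay above the controls 1 to 3. Atf4 had 0.28 and 0.21. With the PPARγ agonist Asns, asparagine synthetase (-0.31, adjusted p = 0.001), and Slc3a2, the shared chain of several amino acid exchangers (-0.45, adjusted p = 7e-05), fell, and Atf4 had -0.11 (adjusted p = 0.15). Promoter windows held the ATF4 letters for 7 of 22 of these genes (31.8%), of which Chac1, Nupr1, Slc1a4 and Trib3 fell with the PPARδ agonist and Asns and Vldlr with the PPARγ agonist. Tars, whose window also held a match, rose with the PPARδ agonist on its brightest probe and was not called on its dimmer probe. Tars was the only called gene with a match that rose with the PPARδ agonist. With the PPARγ agonist Tars (-0.31, on its brightest probe only), Asns (-0.31) and Vldlr (-0.23) fell. The other members and stress response genes with a match were not called with the PPARγ agonist on their brightest probes. So few calls give no direction for genes with a match. The part of ATF4 in these changes was not tested.

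**Figure D5:**
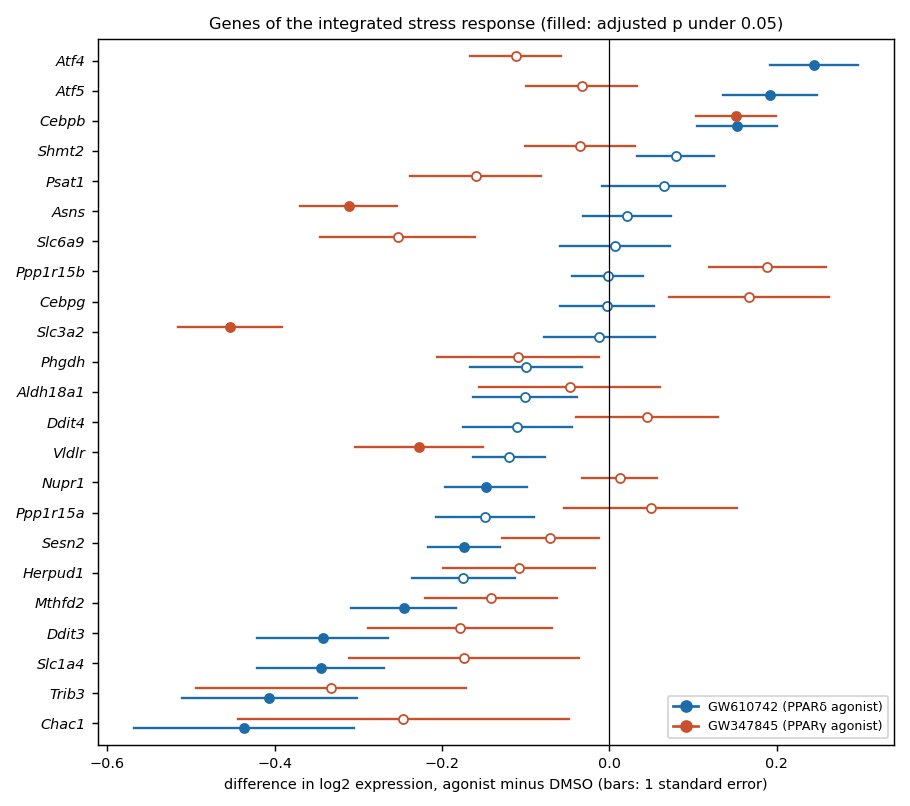
Difference in log2 expression between agonist and DMSO arrays (x axis, bars are 1 standard error) for the 23 measured genes of the integrated stress response, ordered by their change with the PPARδ agonist; filled points passed the test. Atf4 lies highest with the PPARδ agonist at 0.24, while Chac1, Trib3, Slc1a4 and Ddit3 lie lowest.

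Among 22 measured genes of mTORC1 signalling and cap-dependent control, 1 rose and 1 fell with the PPARδ agonist (4.55% each), and 2 rose and 4 fell with the PPARγ agonist (9.09% and 18.2%). Of all genes 8.26% rose and 8.69% fell with the PPARδ agonist, and 10.2% and 12.8% with the PPARγ agonist. Counts near these shares, here and in the lists below, are not results about a list. Pabpc1, the poly(A)-binding protein that joins mRNA ends through eIF4G, followed the pattern of Eif3k and Eef1b2 with 0.35 (adjusted p = 0.00048) and -0.92 (adjusted p = 8.5e-05), and Paip2, its inhibitor, had 0.20 (adjusted p = 0.056) and -0.87 (adjusted p = 2.8e-05). Mtor itself rose by 0.22 with the PPARγ agonist (adjusted p = 0.02). Of 14 genes of termination and recycling, 2 rose and 1 fell with the PPARδ agonist and 2 rose and 2 fell with the PPARγ agonist, and Abce1, the ribosome recycling ATPase that also binds eIF3, had 0.28 (adjusted p = 0.0026) and -0.41 (adjusted p = 0.00016). Of 15 mitochondrial translation factors, 1 rose and 1 fell with each agonist, Tufm, which delivers charged tRNAs to mitochondrial ribosomes, rising by 0.30 with the PPARγ agonist (adjusted p = 0.02). Of 15 synthetase partners and other aminoacylation genes, none rose and 5 fell with the PPARδ agonist, among them Trnt1, which adds the CCA end to tRNAs (-0.21, adjusted p = 0.0073), and 3 rose and 1 fell with the PPARγ agonist, with Farsa and Farsb, the subunits of phenylalanine tRNA synthetase, rising by 0.30 (adjusted p = 0.043) and 0.17 (adjusted p = 0.0029).

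Of 11 measured preadipocyte and fibroblast markers, 2 rose and none fell with the PPARδ agonist, and none rose and 3 fell with the PPARγ agonist. The list had a median of 0.05 with each agonist, with 7 positive changes with the PPARδ and 6 with the PPARγ agonist, so the calls concern Col1a2, S100a4 and Col3a1 and not the list at large. Col1a2, a collagen gene, had 0.23 (adjusted p = 0.024) and -0.71 (adjusted p = 4.1e-05), and S100a4, a calcium-binding protein gene of fibroblasts, 0.36 (adjusted p = 0.0015) and -0.71 (adjusted p = 4.3e-05). Col3a1 had 0.17 (adjusted p = 0.077) and -1.16 (adjusted p = 4.4e-07). The mean of the 11 markers ran from 11.36 to 11.52 in the controls and 11.47 to 11.60 with the PPARδ agonist, and from 11.20 to 11.35 in the controls and 10.98 to 11.31 with the PPARγ agonist. Vim, Fn1 and Col1a1, also fibroblast genes, did not pass with either agonist. Of 12 listed adipocyte markers 6 were measured, of which 1 rose with the PPARδ agonist and none was called with the PPARγ agonist. Their changes ran from -0.22 to 0.81 with the PPARδ agonist (median 0.19, 5 positive). With the PPARγ agonist they ran from -0.12 to 1.32 (median 0.30, 4 positive). Their mean was 10.00 to 10.83 in the controls and 10.05 to 10.84 with the PPARδ agonist, and 9.87 to 10.69 and 9.81 to 11.27 in the PPARγ comparison. The part of these markers in the changes of Eif3k, Eif3h, Eef1b2 and Tars was not tested.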

How the data were processed

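The submitters' processing notes name the R packages lumi and limma, and their versions are not given in the sources used here. Per the methods of the study, the authors kept probes detected in at least 1 sample and applied a variance-stabilizing transformation and then quantile normalization. Per the labels the controls were normalized once for each agonist, and the deposited values, taken here as log2, share 1 distribution over the 12 arrays of each comparison. Of 13964 probes in 24 columns, the PPARδ comparison holds 13718 and the PPARγ comparison 13755. The control columns of both comparisons are the same hybridizations: after each probe's mean was subtracted, same-numbered columns correlated at 0.9987 or more and others at 0.226 or less. Probe symbols came from the platform annotation, updated through gene identifiers to RefSeq. Promoter sequences are those of RefSeq for GRCm38.p6. The matching sequence of 1 synthetase is not reported here.

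Groups follow the sample labels. Agonist and control arrays were compared in limma 3.58.1 under R 4.3.3 (lmFit and eBayes, no block), with Benjamini-Hochberg adjustment over all probes and a threshold of 0.05. For the difference between agonists, the mean of the matching controls was subtracted from every treated array and the results were fitted over 13509 probes, which leaves out the spread of the shared controls. The methods describe independent hybridizations and no more, so a p reflects the spread between arrays, which may be technical in part, and the number of arrays limits precision. The fits were tested on simulated data. Whether replicate numbers pair the arrays is not settled. The deviations of same-numbered arrays correlated at -0.229 to 0.288 with the PPARδ and at -0.0138 to 0.544 with the PPARγ agonist. The same-numbered array was the best match for replicates 1 and 6 with the PPARδ agonist. With the PPARγ agonist it was so for replicates 1, 3, 5 and 6. The main fits used no pairing, and a fit with a replicate block is given among the alternatives.

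The members and gene lists were chosen with earlier results of these data known. Members named were those called with each agonist, the 2 with the largest change not called and the brightest in each subgroup, those whose probes disagreed, and the 6 with the smallest adjusted p of the difference in each direction, and up to 3 called genes per list and direction. Other members and list genes, among them Eif2b3, Eif2b4, Eif2s3x, Trib3, Chac1, Mthfd2 and Nupr1, were chosen after their values were seen. Alternatives were a replicate block, a block of replicates 1 to 3 and 4 to 6, a robust prior, array weights, the methods' t-test with adjustment, centring on medians, cyclic loess, leaving out dim probes, the average over a gene's probes, and fits without 1 array at a time. Plots were made in Python 3.11.15 with matplotlib 3.10.9.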

Additional observations from a re-analysis of the deposited data

Results flagged for a closer look

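Single arrays stood far from the other 5 of their group in 14 of 212 groups of 6 arrays tested over the named members, where chance gives about 1 in 20. In the controls, Eef2 had 9.68 in DMSO replicate 2 of the PPARδ scaling, with the next array at 9.31, and 9.50 in the PPARγ scaling, with the next at 9.13. Eif3l had 12.25 and 12.07 in DMSO replicate 1 of the PPARδ and PPARγ scaling, below the next arrays at 12.38 and 12.21. Rars had 9.59 and 9.41 in the same array, below 9.68 and 9.50. Eif4a3, a helicase of the exon junction complex, had 10.42 and 10.23 in DMSO replicate 2, below 10.65 and 10.46. Eef1e1 had 9.21 in DMSO replicate 6 of the PPARδ scaling, above 9.10. As both scalings hold the same control arrays, these are not separate events. With the PPARδ agonist, replicate 6 stood apart for Eefsec (6.92, next 6.82), Eif4e (7.54, next 7.38) and Iars2 (9.17, next 9.37), and replicate 3 for the helicase gene Eif4a2 (12.96, next 13.01). With the PPARγ agonist, replicate 6 stood apart for Eif3a (9.70, next 9.44).

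The change differed between the agonists, by limma's test of the difference at an adjusted p under 0.05, for 22 of the 53 named members. On the log2 scale it was higher with the PPARδ agonist for Eif3k (0.71), Tars (0.59), Eif3h (0.52), Eef1b2 (0.52), Eif3a (0.35), Eif4e (0.29), Eef1e1 (0.26), Eif3l (0.21), Eif4enif1 (0.19), Eif6 (0.16). It was lower with the PPARδ agonist for Eef2 (-0.31), Eif2b1 (-0.25), Cars (-0.24), Iars2 (-0.23), Eif3b (-0.23), Eif2d (-0.20), Eif2ak1 (-0.17), Eif2b5 (-0.16), Gars (-0.16), Eif2b2 (-0.15), Eefsec (-0.14), Eif4h (-0.13).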

How the results depend on the processing

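The replicate block called 6 members higher and 5 lower with the PPARδ agonist, 10 and 9 with the PPARγ agonist, and 10 and 10 in the difference between agonists. With replicates 1 to 3 and 4 to 6 as a block the counts were 9 and 6, 13 and 11, and 10 and 14. Counts moved by over 1.5 times in 3 other settings: array weights gave 10 members that fell with the PPARδ agonist in place of 6, the methods' t-test with adjustment gave 5 that rose in place of 9, and cyclic loess gave 7 members lower with the PPARδ agonist in the difference in place of 13; the cause was not tested. With 1 array left out, the PPARδ counts ran from 4 to 8 for members that rose and from 2 to 8 for those that fell, the PPARγ counts from 7 to 12 and from 7 to 11, and the difference from 8 to 10 higher and from 9 to 14 lower. With the mean of all probes, Kars had -0.0145 with the PPARδ agonist (adjusted p = 0.78), Eif4b -0.0308 with the PPARγ agonist (adjusted p = 0.59) and 0.18 in the difference (adjusted p = 0.0051), and Eif2d 0.0253 in the difference (adjusted p = 0.63), each with its sign turned, since their probes disagree. Median centring changed no value, and the dim-probe filter left 73, 71 and 71 members. After it 9 rose and 6 fell with the PPARδ agonist, and 9 rose and 6 fell with the PPARγ agonist. In the difference 8 were higher and 11 lower. Several called members were among the dimmest: Cars, Eif3h and Eif4e had means of 6.83, 6.96 and 7.09 in the PPARγ set. Eefsec and Nars2 had 6.89 and 6.84 in the PPARδ set. Precision is limited by 6 arrays per group, by control arrays shared between the comparisons and by probes of 1 gene that disagree.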
